A study of Homo sapiens with 6 samples.

Results

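The genes described here encode core proteins of the small nuclear ribonucleoproteins (snRNPs), the particles that assemble into the spliceosome. They were taken from the expression table by symbol: every gene whose symbol starts with SNRP, SF3A, SF3B or PRPF, and LSM1 to LSM8. This gave 42 of 18216 genes, of which 41 passed the filter on low values. RNA came from REH, an established line of human leukemic B-cell precursors, kept for 24 h with the solvent DMSO (3 libraries) or with 200 nM SNS-032, an inhibitor of cyclin-dependent kinases that include CDK9 (3 libraries). The sample titles write SNS-032, whereas the agent field of the same samples writes SNA-032. All libraries share the same cell line, so no other genetic background was examined. The labels do not say whether the libraries of a group were grown as separate cultures, so p-values measure the spread between libraries, which may be technical.

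The spliceosome removes introns from pre-mRNA and is built on each intron from the U1, U2, U4, U5 and U6 snRNPs. In U1, U2, U4 and U5 a ring of Sm proteins holds the small nuclear RNA, and a related ring of LSM proteins holds the end of U6. U1 recognizes the start of the intron, and U2 with its SF3A and SF3B subcomplexes holds the branch point. The U4/U6 and U5 proteins, many of them named PRPF after their yeast pre-mRNA processing factors, carry the particle into its catalytic form. CDK9 phosphorylates RNA polymerase II and so releases it into elongation, and splicing of most transcripts proceeds while they are being made.

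Levels are FPKM, fragments scaled by transcript length and by the number of mapped fragments. Between libraries they compare shares of the RNA, and rescaling the libraries changed some calls, as given below. Summed over genes, each library held between 457826.4 and 491886.5 FPKM. SNS-032 replicate 1 had a value of −11.8 on the second principal component, against 4.3 and 7.6 for the other SNS-032 libraries. Of 14 B-cell precursor markers, 13 had a mean of 1 FPKM or more in each group, led by IGLL1 and VPREB1, while MME was at 0.0733 FPKM with DMSO. Their summed level was 1984 to 2123 FPKM with DMSO and 1185 to 1318 FPKM with SNS-032. The summed level of 5 measured T-cell markers was 0.28 to 0.37 FPKM with DMSO and 2.25 to 4.26 FPKM with SNS-032. CD3G made up most of it, with means of 0.257 and 2.94 FPKM, while CD3E was at 0 and 0.0167 FPKM and CD3D at 0.03 and 0 FPKM. That of 7 myeloid markers was 8.26 to 8.73 and 18.87 to 21.66 FPKM. Of these, LYZ had means of 3.15 and 16.7 FPKM, CD14 of 0.0667 and 2.32 FPKM, CSF1R of 4.89 and 1.05 FPKM, and MPO of 0.09 and 0.0967 FPKM. That of 4 erythroid markers was 0.25 to 0.34 and 1.45 to 2.06 FPKM, with SLC4A1 at 0.203 and 1.6 FPKM and HBA2 at 0.03 and 0.08 FPKM. That of 6 markers of cells outside the blood was 1.37 to 1.59 and 2.70 to 3.08 FPKM, with PECAM1 at 0.827 and 1.77 FPKM and ALB at 0.0833 and 0.08 FPKM. Their part in the results was not tested. In bulk RNA, fewer cells with a transcript and less of it per cell cannot be told apart, and FPKM show shares of the RNA rather than amounts per cell.

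After SNS-032 the snRNP protein genes were split rather than moved together. The largest fall was that of LSM2, a subunit of the U6 ring, and the largest rise that of SF3B4, a subunit of the branch point complex of U2. Fold changes are log2 differences of FPKM + 1, SNS-032 over DMSO, from limma, a linear model with shared variance, and a gene was called higher or lower at a Benjamini-Hochberg adjusted p under 0.05 over 12239 genes. By this test 26 of the 41 genes were lower and 13 higher, beside 49.3% lower and 39.9% higher (89.2% in either direction) among all genes tested. The 2 genes past neither side were SNRPD2 and PRPF3. Without SNS-032 replicate 1 the counts were again 26 and 13. The median log2 fold change of the 41 genes was −0.44, beside −0.14 for all genes tested, and the median absolute log2 fold change was 0.82, beside 0.76. At stricter limits (limma adjusted p below 0.001, log2 fold change of 2 or more in size), only LSM2 passed as lower, beside 2.43% of all genes tested. No snRNP protein gene passed as higher there, beside 3.52%. The summed FPKM of the 42 genes was 3160, 3243 and 3255 in the DMSO libraries and 3156, 3192 and 3162 in the SNS-032 libraries. The totals overlapped between the treatments, although 38 of the 41 genes had no overlap between their DMSO and SNS-032 libraries, beside 89.7% of all genes tested.

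Some values may hold reads of a neighbour, since whether the libraries kept strand is not given in the sources used here. In GENCODE the exons of LSM1 (with BAG4), LSM3 (XPC), PRPF4 (CDC26), PRPF31 (TFPT), PRPF39 (FKBP3), PRPF40B (FMNL3), SF3A1 (CCDC157), SF3A2 (PLEKHJ1), SNRPD3 (GUCD1) and SNRPF (CCDC38) share bases with the named gene on the opposite strand, as those of PRPF8 do with a gene known by a clone name. SNRPB and PRPF18 share exonic bases with such a gene on their own strand.

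**Figure D1:**
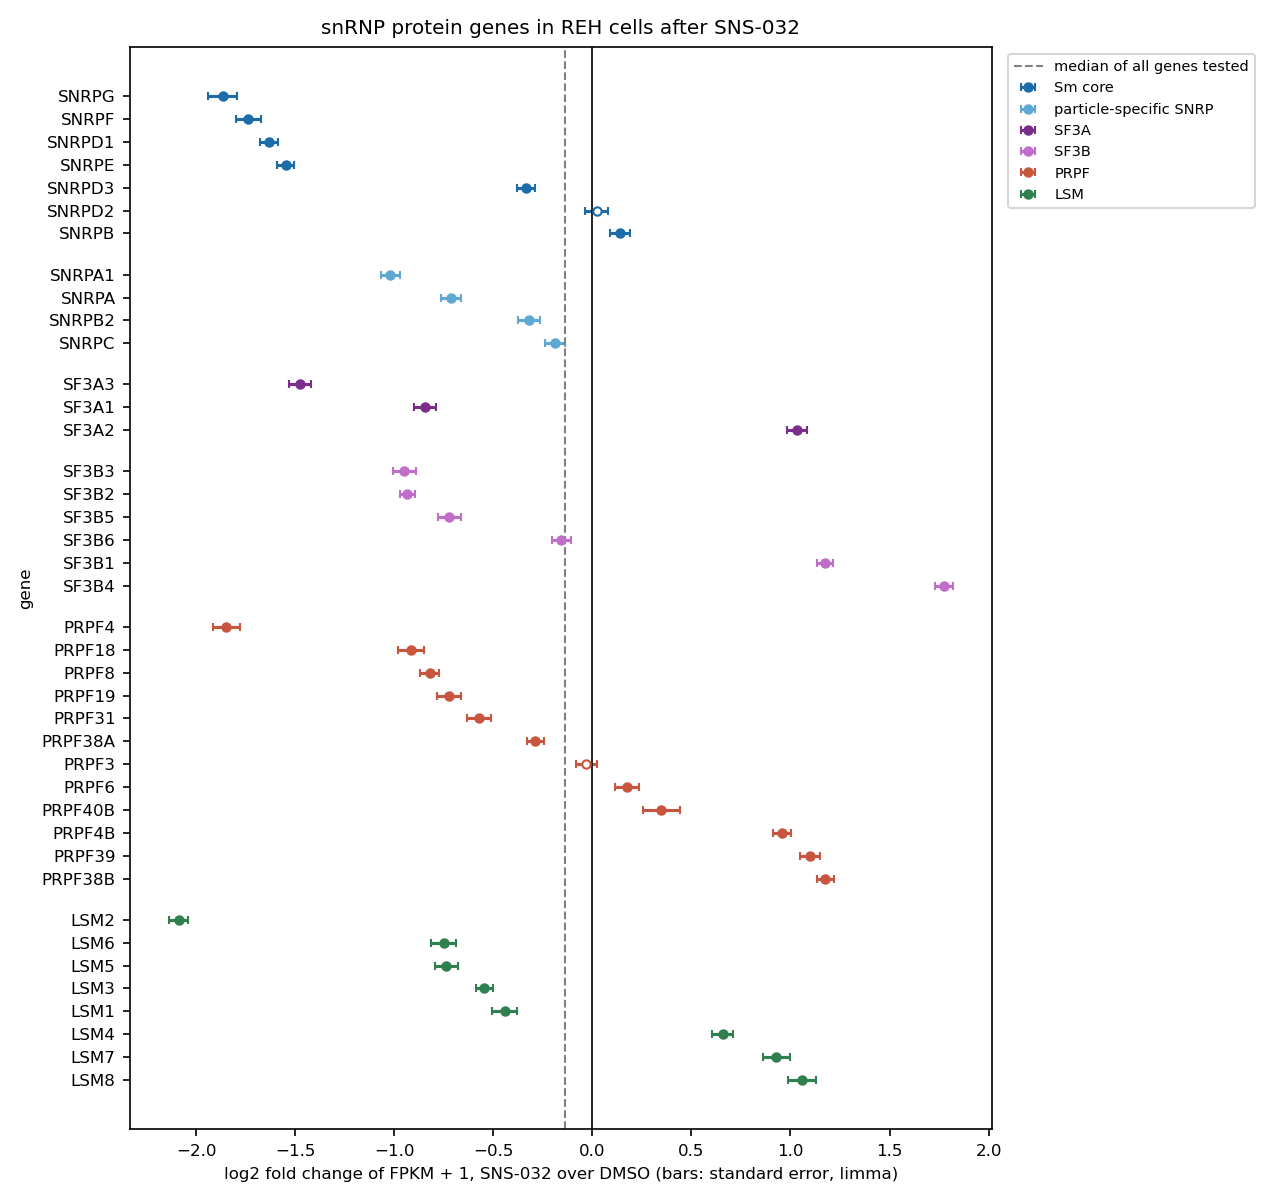
Log2 fold change of FPKM + 1 (horizontal axis, SNS-032 over DMSO) for 40 of the 41 tested genes (vertical axis), coloured by family, with bars for the limma standard error, open circles for the 2 genes that passed the test in neither direction, and a dashed line at the median of all genes tested, −0.14. Values run from −2.09 for LSM2 to 1.77 for SF3B4. The Sm, SF3A, SF3B, PRPF and LSM families each hold genes on both sides of 0.

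The promoters of 2 genes that fell and 2 that rose are shown to set the letters around their start sites beside each other. They are RefSeq sequences on GRCh38.p14, 250 bases before and 50 after the most upstream listed start, on the strand of the gene, and the capitals mark motifs found on either strand. The first holds the letters CCAAT at 2 places and a GC box (GGGCGG, here on the other strand), the next a GC box, the third 3 GC boxes and the core letters of ETS factors, CCGGAAG, and the last an E-box, CACGTG, the letters bound by MYC with MAX.
SNRPF (chr12:95858702-95859001, plus strand, fell): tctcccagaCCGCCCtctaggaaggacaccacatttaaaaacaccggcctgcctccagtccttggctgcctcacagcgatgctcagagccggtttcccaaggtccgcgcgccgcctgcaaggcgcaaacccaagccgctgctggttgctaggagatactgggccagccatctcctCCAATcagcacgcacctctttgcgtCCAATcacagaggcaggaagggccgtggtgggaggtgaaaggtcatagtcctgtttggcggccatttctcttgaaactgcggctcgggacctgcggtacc
LSM2 (chr6:31806917-31807216, minus strand, fell): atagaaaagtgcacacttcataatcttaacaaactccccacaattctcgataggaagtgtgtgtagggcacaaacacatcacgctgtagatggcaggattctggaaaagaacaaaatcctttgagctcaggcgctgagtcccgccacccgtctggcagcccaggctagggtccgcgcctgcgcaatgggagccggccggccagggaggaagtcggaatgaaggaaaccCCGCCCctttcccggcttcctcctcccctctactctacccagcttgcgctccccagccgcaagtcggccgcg
SF3B4 (chr1:149927754-149928053, minus strand, rose): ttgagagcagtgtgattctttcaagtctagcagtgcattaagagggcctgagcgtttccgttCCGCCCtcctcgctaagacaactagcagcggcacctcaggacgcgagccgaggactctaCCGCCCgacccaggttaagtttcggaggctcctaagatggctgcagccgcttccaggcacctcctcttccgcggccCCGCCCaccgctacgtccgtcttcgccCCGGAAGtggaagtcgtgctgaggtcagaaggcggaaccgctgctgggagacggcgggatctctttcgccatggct
SF3B1 (chr2:197435044-197435343, minus strand, rose): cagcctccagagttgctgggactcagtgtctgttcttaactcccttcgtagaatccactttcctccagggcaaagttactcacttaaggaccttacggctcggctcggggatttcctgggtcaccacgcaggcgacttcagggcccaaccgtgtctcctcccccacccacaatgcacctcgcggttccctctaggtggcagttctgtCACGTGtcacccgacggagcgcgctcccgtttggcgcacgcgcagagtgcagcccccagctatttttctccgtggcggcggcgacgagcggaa

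The RefSeq start of SF3B4 lies 541 bases from the outer end of its GENCODE model, while those of SNRPF, LSM2 and SF3B1 lie within 24, 18 and 2 bases of theirs. Promoters were found for 34 of the 41 tested genes. The listed starts do not always mark the outer end of the gene: 18 of the 34 lay within 100 bases of the end of the GENCODE model, while those of SNRPE and SNRPG lay 244 and 313 bases from it and that of PRPF40B 55343 bases. CCGGAAG stood in 18 of these 34 windows, 52.9%, beside 20.0% of the windows of 9950 tested genes and 10.6% of all 27305 gene windows. Of the 18 windows within 100 bases, a limit set after the data were seen, 9 held it, 50%, beside 20.9% of 5848 such windows of tested genes. Over all 34, it stood in 11 of 22 windows of genes that were lower and in 6 of 11 windows of genes that were higher. CACGTG stood in 1 of the 34 windows, that of SF3B1, beside 10.2% of tested genes. The GC box stood in 21 of the 34 windows (68.6% of tested genes), CCAAT in 14 (37.5%) and the letters TATAAA in 2 (5.95%). A match describes the letters of a window and was not tested as a site.

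The Sm ring was divided. SNRPD1, SNRPE, SNRPF and SNRPG fell 3.01-fold to 3.69-fold, whereas SNRPB, SNRPD2 and SNRPD3 stayed within 1.27-fold of their DMSO level. Of the 7 tested Sm genes, 5 were lower and 1 higher, beside 49.3% and 39.9% of all genes tested. The median log2 fold change of the Sm genes was −1.55. SNRPG, the SmG protein of the ring, was at 174.38, 183.31 and 189.63 FPKM in the DMSO libraries and at 45.5, 46.7 and 56.3 FPKM in the SNS-032 libraries. Its groups did not overlap, and the mean fell from 182 ± 7.66 to 49.5 ± 5.92 FPKM (SD, n = 3 each), 3.69-fold, with a log2 fold change of −1.87 (standard error 0.072, limma adjusted p = 4.62e-10). SNRPF (SmF), SNRPD1 (SmD1) and SNRPE (SmE) had log2 fold changes of −1.74, −1.63 and −1.55, with standard errors of 0.062, 0.046 and 0.043.

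SNRPB, which encodes SmB and its longer splice form SmB', was the most abundant Sm gene in both groups. It was at 235.75, 262.32 and 237.01 FPKM with DMSO and at 260.34, 284.49 and 265.01 FPKM with SNS-032, and the groups overlapped. It was called higher by 0.14 on the log2 scale (standard error 0.052, limma adjusted p = 0.0229). This call was lost without DMSO replicate 1, DMSO replicate 3 or SNS-032 replicate 2 (limma adjusted p = 0.0957, 0.0920 and 0.0972), and with the libraries rescaled to one total (limma adjusted p = 0.126). SNRPD2, or SmD2, was at 190.72, 197.02 and 211.54 FPKM with DMSO and at 218.7, 199.76 and 190.1 FPKM with SNS-032. Its groups overlapped and its log2 fold change of 0.02 did not pass (limma adjusted p = 0.729), with the sign turning to −0.028 after rescaling to one total. SNRPD3, or SmD3, fell by 0.34 on the log2 scale (standard error 0.044), from 59.6 to 47.0 FPKM.

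Together SNRPD1, SNRPE, SNRPF and SNRPG, grouped here with their values known, summed to 461.5, 468.2 and 486.4 FPKM with DMSO and to 135.8, 133.7 and 149.8 FPKM with SNS-032. SNRPB, SNRPD2 and SNRPD3 summed to 485.1, 519.6 and 508.4 FPKM and to 524.2, 531.4 and 503.8 FPKM. The first sums did not overlap between the treatments, which was fixed once each of these genes fell without overlap, and the second did. The sums describe levels and are no further support for the division. The mature ring holds 1 copy of each protein, but Sm proteins were not measured here, so the spread of levels describes mRNA only. The highest of the 7 Sm levels was 3.96 to 4.36 times the lowest in the DMSO libraries. In the SNS-032 libraries it was 11.2 to 12.3 times the lowest. SNRPD3 was the lowest of the ring with DMSO and SNRPE with SNS-032. SNRPN, which encodes SmN, a close relative of SmB best known from brain, was listed at 0.03, 0.05 and 0.02 FPKM with DMSO and at 0.05, 0.02 and 0 FPKM with SNS-032, too low to be tested. GENCODE lists 20 pseudogenes named after SNRPG, 9 after SNRPE, 4 after SNRPF, 2 after SNRPD2 and 1 after SNRPB. Outside the Sm genes it lists 4 after LSM3, 2 each after LSM1, SF3A3 and PRPF38A, and 1 each after LSM6 and PRPF19. Reads of all these genes may be shared with near-identical copies.

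**Figure D2:**
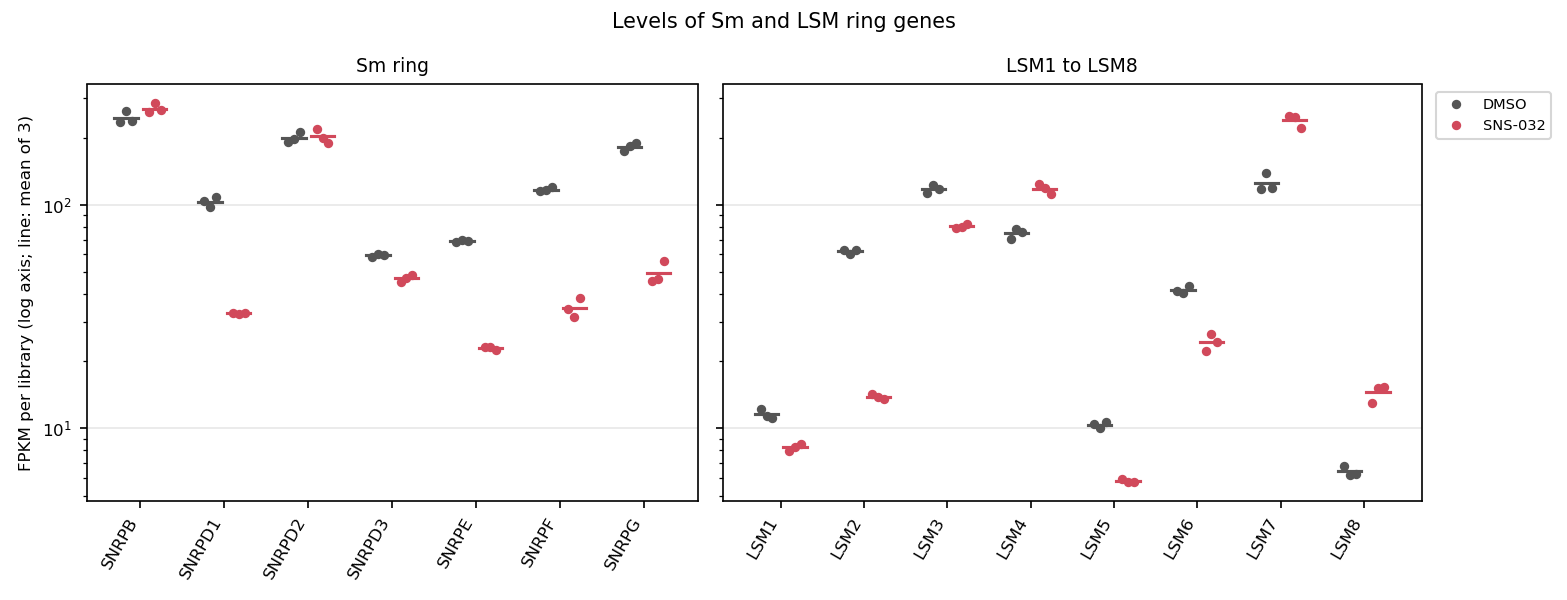
FPKM per library on a log axis for the 7 expressed Sm ring genes and for LSM1 to LSM8, with 1 point per library, grey for DMSO and red for SNS-032, and a line at the mean of 3. SNRPD1, SNRPE, SNRPF and SNRPG drop while SNRPB and SNRPD2 overlap, and LSM2 drops to 13.8 FPKM while LSM4, LSM7 and LSM8 lie higher with SNS-032.

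The LSM ring genes also held both directions. LSM2 to LSM7 are shared by 2 rings: with LSM8 they bind the end of U6 in the nucleus, and with LSM1 they take part in mRNA decapping in the cytoplasm. Of the 8 genes, 5 were lower and 3 higher (62.5% and 37.5%), not far from the 49.3% and 39.9% of all genes tested. Their median absolute log2 fold change was 0.74, near the 0.76 of all genes tested. The median log2 fold change of the 8 genes was −0.49. LSM2 was at 62.92, 60.41 and 62.8 FPKM with DMSO and at 14.18, 13.76 and 13.54 FPKM with SNS-032. Without overlap it fell 4.49-fold, with a log2 fold change of −2.09 (standard error 0.047, limma adjusted p = 2.99e-12), the lowest of the snRNP protein genes. On GRCh38 LSM2 lies on chromosome 6 from 31797396 to 31806984 on the minus strand, with 5 exons in its longest coding transcript.

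LSM7, the LSM gene with the highest mean in both groups, was at 117.84, 139.47 and 119.42 FPKM with DMSO and at 250.79, 248.34 and 219.89 FPKM with SNS-032, 1.91-fold higher on average. LSM4, whose protein carries an arginine- and glycine-rich tail, was at 70.18, 77.79 and 75.96 FPKM with DMSO and at 124.09, 118.49 and 112.18 FPKM with SNS-032. LSM8 was at 6.78, 6.2 and 6.27 FPKM with DMSO and at 13, 15.12 and 15.3 FPKM with SNS-032. In each of these 3 genes all SNS-032 libraries lay above all DMSO libraries, and the log2 fold changes were 0.93, 0.66 and 1.06 in this order (standard errors of 0.070, 0.052 and 0.072, limma adjusted p = 1.48e-07, 1.18e-07 and 3.17e-08). LSM6, LSM5, LSM3 and LSM1 fell by 0.75, 0.74, 0.55 and 0.44 on the log2 scale.

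LSM1 and LSM8, the subunits that set the 2 rings apart, were on opposite sides. The level of LSM8 over that of LSM1 was 0.554, 0.545 and 0.563 in the DMSO libraries and 1.64, 1.83 and 1.79 in the SNS-032 libraries. As LSM8 rose and LSM1 fell, each without overlap, this ratio had to separate, and its test adds nothing to their fold changes. The exact permutation p was 0.1 (two-sided), the smallest that 3 against 3 libraries allow. It is 1 of 10 ratios computed after the values were seen, all with this p. Among LSM2 to LSM7 the highest level was 11.2 to 13.8 times the lowest with DMSO and 38.0 to 43.0 times with SNS-032.

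All 4 proteins that belong to U1 or U2 alone and carry an SNRP symbol were lower, beside 49.3% of all genes tested. SNRPA1, the U2 protein A', was at 80.43, 79.31 and 86.18 FPKM with DMSO and at 38.71, 39.51 and 41.49 FPKM with SNS-032. It fell 2.05-fold without overlap, with a log2 fold change of −1.02 (standard error 0.048, limma adjusted p = 1.12e-09). SNRPC, the U1 protein C that helps to hold the start of the intron, changed least, from 129.03, 136.76 and 133.08 FPKM with DMSO to 122.46, 108.78 and 118.6 FPKM with SNS-032. The groups lay close but apart, and the log2 fold change was −0.19 (standard error 0.049, limma adjusted p = 0.00311), near the median of all genes tested. GENCODE lists 18 pseudogenes named after SNRPC. SNRPA, the U1 protein A, and SNRPB2, the U2 protein B'' that partners SNRPA1, fell by 0.71 and 0.32 on the log2 scale. The median of the 4 genes was −0.52.

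SF3A, the 3-protein subcomplex that joins U2 to make it competent for the branch point, held both directions. SF3A3 was at 81.89, 79.2 and 80.33 FPKM with DMSO and at 27.4, 26.7 and 30.86 FPKM with SNS-032. SF3A2 was at 140.74, 152.32 and 159.37 FPKM with DMSO and at 306.29, 322.27 and 300.11 FPKM with SNS-032. Both separated without overlap, SF3A3 falling 2.84-fold (log2 fold change −1.48, standard error 0.056, limma adjusted p = 1.61e-10) and SF3A2 rising 2.05-fold (log2 fold change 1.03, standard error 0.050, limma adjusted p = 1.42e-09). SF3A1, whose ubiquitin-like end binds U1 RNA, fell by 0.84 on the log2 scale. The level of SF3A2 over that of SF3A3 went from 1.88 ± 0.139 with DMSO to 10.99 ± 1.18 with SNS-032 (SD, n = 3 each).

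In SF3B, the complex that clamps the branch point helix, 4 genes were lower and 2 higher, beside 49.3% and 39.9% of all genes tested. The SF3B median was −0.44 on the log2 scale. SF3B4, an RNA-binding subunit that contacts the pre-mRNA next to the branch point, was at 77.64, 81.62 and 79.45 FPKM with DMSO and at 288.5, 266.15 and 269.65 FPKM with SNS-032. The mean went from 79.6 ± 1.99 to 275 ± 12.02 FPKM (SD, n = 3 each) without overlap, a rise of 3.45-fold with a log2 fold change of 1.77 (standard error 0.043, limma adjusted p = 5.47e-12). This exceeded the log2 fold change of 95.1% of all genes tested. On GRCh38 SF3B4 lies on chromosome 1 from 149923317 to 149928344, with 6 exons in its longest coding transcript.

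SF3B1, the large scaffold of the clamp and a gene often mutated in blood cancers, was at 123.23, 119.83 and 122.45 FPKM with DMSO and at 263.86, 281.03 and 284.53 FPKM with SNS-032. It rose 2.27-fold without overlap (log2 fold change 1.17, standard error 0.041, limma adjusted p = 8.62e-11). SF3B2, the most abundant subunit with DMSO, was at 140.94, 139.59 and 142.61 FPKM there and at 71.58, 75.17 and 73.35 FPKM with SNS-032. SF3B3, a propeller-shaped protein that binds SF3B1, was at 43.02, 42.68 and 41.77 FPKM and at 19.76, 21.86 and 23.1 FPKM. Both fell without overlap, by 0.93 and 0.95 on the log2 scale (standard errors of 0.039 and 0.058, limma adjusted p = 3.7e-10 and 1.17e-08). SF3B5, a small subunit encoded by a single exon, fell by 0.72. SF3B6, which contacts the branch point adenosine, fell by 0.16 (limma adjusted p = 0.00805), a call lost without DMSO replicate 3 (limma adjusted p = 0.0543).

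The order of levels in SF3B changed with this. With DMSO it ran from SF3B2 through SF3B1, SF3B6, SF3B4 and SF3B5 to SF3B3, with SF3B6 and SF3B4 overlapping in their libraries. With SNS-032 SF3B1 and SF3B4 overlapped at the top, and SF3B2 and SF3B6 overlapped below them. The highest level was 3.27 to 3.41 times the lowest in the DMSO libraries and 12.3 to 14.6 times in the SNS-032 libraries.

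**Figure D3:**
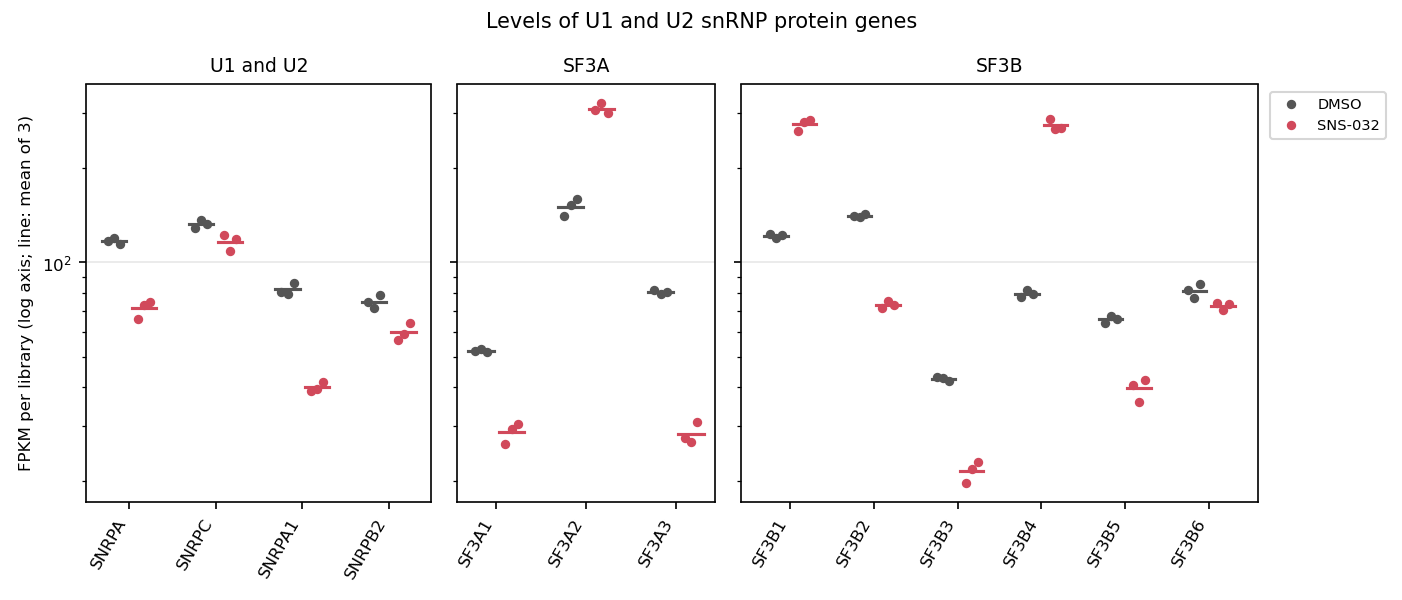
FPKM per library on a log axis for the U1 and U2 proteins with SNRP symbols, SF3A and SF3B, with 1 point per library, grey for DMSO and red for SNS-032, and a line at the mean of 3. SF3A2, SF3B1 and SF3B4 lie higher with SNS-032, SF3B4 at 275 against 79.6 FPKM, and the other genes lie lower.

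The 13 PRPF genes were evenly divided, with 6 lower and 6 higher (46.2% each), near the 49.3% and 39.9% of all genes tested. Their median log2 fold change was −0.030. The PRPF genes of the U4/U6 and U5 particles did not share a direction. PRPF4, a U4/U6 protein that binds PRPF3, was at 26.38, 26.14 and 26.62 FPKM with DMSO and at 5.88, 6.82 and 7.18 FPKM with SNS-032. It fell 3.98-fold without overlap (log2 fold change −1.85, standard error 0.068, limma adjusted p = 1.37e-10). PRPF3, its partner, was at 38.36, 36.8 and 38.1 FPKM with DMSO and at 37.18, 39.08 and 34.73 FPKM with SNS-032. Its groups overlapped and the log2 fold change of −0.030 did not pass (limma adjusted p = 0.596). The level of PRPF3 over that of PRPF4 went from 1.43 ± 0.0232 to 5.63 ± 0.748 (SD, n = 3 each).

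PRPF8, the U5 scaffold at the heart of the catalytic core and the most abundant PRPF gene with DMSO, was at 97.63, 98.12 and 92.01 FPKM there and at 51.3, 54.4 and 55.89 FPKM with SNS-032. It fell 1.78-fold without overlap (log2 fold change −0.82, standard error 0.047, limma adjusted p = 6.3e-09). PRPF31, which ties U4/U6 to U5, fell by 0.57 on the log2 scale. PRPF6, the bridge between the same particles, was at 31.59, 30.53 and 31.71 FPKM with DMSO and at 32.5, 38.15 and 35.85 FPKM with SNS-032. It was called higher by 0.17 (standard error 0.059, limma adjusted p = 0.0149), and lost the call without DMSO replicate 2 or SNS-032 replicate 2 (limma adjusted p = 0.0561 and 0.0688) and after rescaling to one total (limma adjusted p = 0.0989).

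PRPF39 and PRPF40B, which are tied to U1 by homology to yeast U1 proteins, were higher. PRPF39 was at 17.24, 17.32 and 18.61 FPKM with DMSO and at 38.4, 39.82 and 39.06 FPKM with SNS-032. PRPF40B, weakly expressed, was at 2.63, 3.23 and 3.39 FPKM and at 4.26, 4.63 and 3.7 FPKM. All SNS-032 libraries lay above all DMSO libraries in each, and the log2 fold changes were 1.10 and 0.35 (standard errors of 0.050 and 0.094, limma adjusted p = 8.1e-10 and 0.00414).

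Of the remaining PRPF genes, a kinase and a paralog rose. PRPF4B, a kinase that phosphorylates spliceosomal proteins as the complex matures, was at 45.15, 43.08 and 45.68 FPKM with DMSO and at 83.14, 89.34 and 90.39 FPKM with SNS-032. PRPF38B was at 46.2, 45.8 and 49.4 FPKM and at 108.07, 105.35 and 109.82 FPKM. Neither overlapped, and they rose by 0.96 and 1.18 on the log2 scale (standard errors of 0.047 and 0.044, limma adjusted p = 1.65e-09 and 1.64e-10). PRPF38A, which enters with the U4/U6 and U5 particles and shares its name with PRPF38B, fell by 0.29 on the log2 scale. PRPF18, a factor of the second catalytic step, and PRPF19, the ubiquitin ligase of the complex named after it, fell by 0.92 and 0.72.

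**Figure D4:**
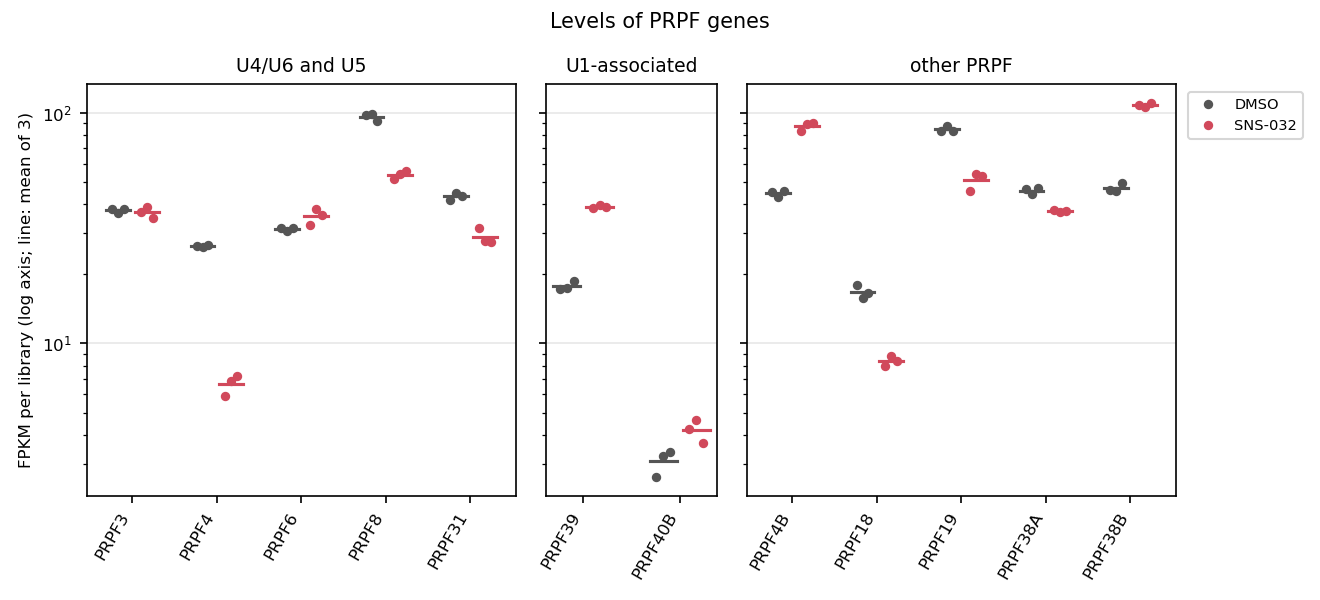
FPKM per library on a log axis for 12 PRPF genes by particle, with 1 point per library, grey for DMSO and red for SNS-032, and a line at the mean of 3. PRPF4 drops from 26.4 to 6.63 FPKM, PRPF3 overlaps, and PRPF39, PRPF40B, PRPF4B and PRPF38B lie higher with SNS-032.

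Some properties that did not enter the choice of the genes were set beside the fold changes. The snRNP protein genes were more compact than the genes tested as a whole, with a median span of 16389 bases against 30713, and more abundant, with a median of 74.6 FPKM against 11.5 FPKM with DMSO. Across the 41 genes the log2 fold change had a Pearson's r of −0.03 and a Spearman's rho of −0.09 with the log2 gene span, 0.15 and 0.14 with the log2 length of the longest coding transcript, and 0.08 and 0.05 with the log2 number of exons. Across 11940 tested genes with a gene model these were −0.06 and −0.03, −0.01 and 0.03, and −0.12 and −0.08. Against log2(FPKM + 1) of the DMSO mean they were −0.12 and −0.06 in the 41 genes, and −0.43 and −0.45 across those 11940. Genes under 1 FPKM with DMSO were tested only if they reached it with SNS-032, so the 2 sets were not compared at like levels. All these coefficients are across genes of the same libraries, which are not independent replicates. The DMSO values enter both sides of those with the DMSO mean.

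Other genes of the splicing pathway and of snRNP assembly were followed as 4 lists. Among 25 further snRNP proteins, 17 were lower and 7 higher, beside 49.3% and 39.9% of all genes tested. SNU13 passed neither way, and the median log2 fold change of the list was −0.32. SNRNP25 of the minor U11/U12 particle and EFTUD2, the GTPase of U5 that binds PRPF8, fell by 1.91 and 1.68 on the log2 scale. CD2BP2, a U5 protein absent from the later complexes, and SNRNP70, the U1 70K protein, rose 2.53-fold and 2.35-fold. SNRNP70 was at 142 ± 4.89 FPKM with DMSO and at 334 ± 24.9 FPKM with SNS-032 (SD, n = 3 each), on the other side from its U1 partners SNRPA and SNRPC. SNRNP200, the U5 helicase that unwinds U4 from U6, had a log2 fold change of −0.10 (limma adjusted p = 0.0342).

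Of 28 genes for the assembly, modification and import of snRNPs, 19 were lower and 7 higher, beside 49.3% and 39.9% of all genes tested. USP4 and SART3 passed neither way, and the median log2 fold change of the list was −0.93. The list also holds LSM10 and LSM11 of the U7 particle, and LARP7 and MEPCE of the 7SK particle. These particles are not part of the spliceosome. The genes fell by 1.96, 0.20, 0.96 and 1.96 on the log2 scale and are among the lower genes counted. PRMT5, which methylates Sm proteins before the ring is built, went down 4.83-fold, with 78.5 ± 3.08 FPKM in the DMSO libraries and 16.3 ± 0.774 FPKM in the SNS-032 libraries (SD, n = 3 each). Its partners WDR77, CLNS1A and RIOK1 fell by 1.21, 1.43 and 1.09 on the log2 scale. GEMIN6, a subunit of the SMN complex that loads the Sm ring, went from 17.2 ± 1.81 to 1.93 ± 1.19 FPKM (SD, n = 3 each), a fall with a wide standard error of 0.33. Of its other Gemin subunits, GEMIN2, DDX20 (Gemin3), GEMIN4, GEMIN5 and GEMIN7 fell 3.61-fold, 1.99-fold, 3.09-fold, 3.73-fold and 2.02-fold, and GEMIN8 rose 1.96-fold. AAR2, a U5 assembly chaperone, rose 2.92-fold. SMN1, which encodes the SMN protein, had a log2 fold change of 1.02, a value that is uncertain because SMN1 and SMN2, at 0.42, are near-identical.

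Of 14 genes for branch point and 3' splice site recognition, 8 were higher and 5 lower, beside 39.9% and 49.3% of all genes tested, and RBM10 passed neither way. Their median was 0.29, and whether the list differed from other genes was not tested. SF1, the first protein to bind the branch point, and CHERP, a U2-associated protein, rose by 0.91 and 1.00 on the log2 scale. HTATSF1, which binds SF3B1 in the U2 snRNP, and U2AF1, the small subunit of the 3' splice site factor, fell by 1.53 and 0.91. Of 23 genes of the Prp19 complex and the catalytic steps, 11 fell and 11 rose, beside 49.3% and 39.9% of all genes tested. The median of this list was −0.0023. BCAS2, a core subunit beside PRPF19, and CWC27, a cyclophilin, fell by 2.08 and 1.19. SYF2, which joins the same complex, and DHX38, the helicase that follows the first catalytic step, rose by 1.60 and 1.43.

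**Figure D5:**
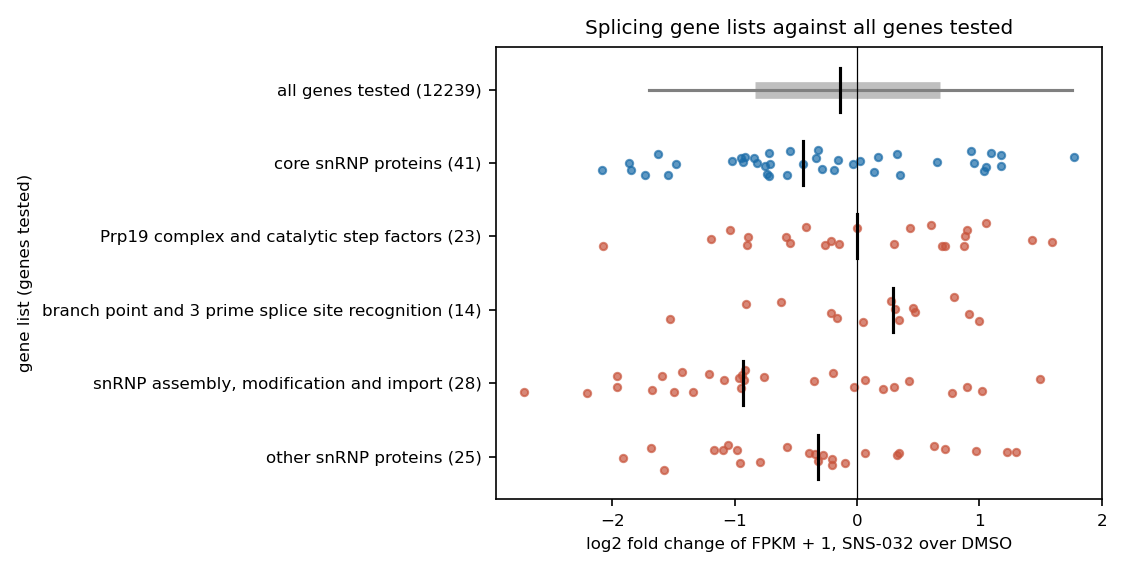
Log2 fold change of FPKM + 1 (horizontal axis, SNS-032 over DMSO) for the 41 core snRNP genes in blue and for 4 other splicing lists in red, 1 point per gene, with a black line at each median and small random vertical offsets, beside all 12239 genes tested (thick bar, 25th to 75th percentile; thin bar, 5th to 95th). The assembly list has the lowest median, −0.93, and the branch point list the highest, 0.29, and every list holds genes on both sides of 0.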

How the data were processed

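RNA of REH cells was sequenced in 6 libraries, 3 with DMSO and 3 with SNS-032. The authors extracted RNA with TRIzol, mapped reads with Bowtie2 and HISAT, and deposited FPKM from RSEM, per gene and library, rounded to 2 decimals. HISAT2 2.0.4 and GRCh38.p12 are given in the submitters' processing notes. The authors also deposited a log2 fold change, a p-value and a q-value per gene, which were not used. FPKM give no counts, and RSEM estimates need not be whole, so depth and counting error are unknown and precision was judged between libraries.

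FPKM were taken as deposited. Genes were tested if their mean reached 1 FPKM with DMSO or with SNS-032 (12239 of 18216), on log2(FPKM + 1), with limma 3.58.1 in R 4.3.3 (trended, robust prior variance; checked on simulated data). Families followed symbols and known roles. Coordinates and exons came from GENCODE v29 (GRCh38), matched by Entrez gene, and promoters from RefSeq (GRCh38.p14). Ratios were tested with an exact permutation test.

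The genes, lists and tests were chosen with earlier results of these data known, as were the alternatives: a pseudocount of 0.1, no filter, 2 rescalings of the libraries, the replicate number as a block, plain limma, and leaving out each library. Values in every library are given for the extreme and the most abundant genes of each family, and for each gene that was higher or passed neither way. The values of 1 higher gene are counted but not reported here. From each other list the 2 largest falls and rises at 5 FPKM or more are named. SNRNP200, WDR77, CLNS1A, RIOK1, GEMIN2, GEMIN4, GEMIN5, GEMIN7, GEMIN8, DDX20, SMN2, USP4, SART3, RBM10 and SNU13 were named after their values were seen. So were LSM10, LSM11, LARP7 and MEPCE.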

Additional observations from a re-analysis of the deposited data

How the results depend on the processing

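The counts of 26 lower and 13 higher snRNP protein genes varied little. Lower genes numbered 25 to 26 and higher genes 11 to 13 when each library was left out in turn, 26 and 11 with the libraries rescaled to one total, 26 and 13 with median-of-ratios size factors, a pseudocount of 0.1 or no filter, and 26 and 12 with plain limma. Over all genes tested, leaving out a library gave 5885 to 6038 lower and 4750 to 4896 higher. Without a filter 6804 were higher and 6312 lower, so that the larger number turned. Rescaling to one total moved the median of all genes from −0.14 to −0.18 and size factors moved it to −0.11. With one total SNRPD2 turned from 0.02 to −0.028. With libraries left out, SNRPD2 ranged from −0.034 to 0.066, PRPF3 from −0.069 to 0.014, and the PRPF median from −0.069 to 0.014, each turning sign. The calls of SNRPB, PRPF6 and SF3B6 were lost as given above, SNRPB also with plain limma (adjusted p = 0.0656). The cause was not tested.

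Among the 34 promoter windows of snRNP protein genes, CCGGAAG stood in 52.9%, as given above, beside 20% of the windows of tested genes. Within 100 bases of the gene model it stood in 50% of 18 windows, beside 20.9% for tested genes.

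Libraries with the same replicate number did not deviate together (Pearson's r across genes of −0.119, 0.014 and −0.016 for numbers 1, 2 and 3). With the replicate number as a block, 26 snRNP protein genes were lower and 13 higher, and 5989 and 4862 of all genes. No call of a snRNP protein gene changed under the block.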
